A study of Mus musculus with 6 samples.

Results

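The DNA replication machinery was examined through 40 genes, listed by symbol and grouped by role: the MCM helicase, licensing and firing factors, polymerases and primase, the sliding clamp with its loader, nucleotide supply, single-strand binding, Okazaki fragment joining and chromatin assembly behind the fork. The platform annotation gave 39 of the 40 a probe set of a single symbol, among 18193 genes so named, and no probe set of a single symbol was listed for Chaf1a. Of the 39, 38 were bright enough to be tested, among 11661 genes, and each was read on its brightest probe set. Tyms lay below the level at which probe sets were kept.

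The samples were heart ventricles of 129SvEv mouse embryos at E11.5. The knockout group was 3 arrays of embryos in which skNAC, a muscle form of the Naca transcript, had been deleted by gene targeting. The other 3 arrays held wild-type littermates. The labels place death of the knockout embryos, with cardiac defects, by E12.5, and do not say whether an array held 1 heart or several, so the p-values measure the spread between these samples, which may be technical. Each array keeps its title number: 1, 26 and 66 are knockouts, 13, 23 and 57 wild-type.

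Signals were per-array scaled intensities on Affymetrix mouse arrays, with array medians between 92.0 and 113.9. A log2 difference is knockout minus wild-type of log2(signal + 16), given ± SE, and understates the change of dim genes. The Naca probe sets, of which there were 2, read 7406 to 9762 in knockout and 7504 to 8566 in wild-type. The sources used here do not say whether either covers the deleted part, so they do not check the genotype. All 12 cardiomyocyte markers were above the level kept, and none of the 5 liver markers on the array was. Knockout 66 stood apart: its correlation with other arrays over all kept probe sets was 0.928 to 0.940, and its first principal component score was 55.9 against -24.7 to 4.79 in the others. Results without it are therefore also given for the replication genes as a whole and for some roles and genes.

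Before a cell copies its genome, the origin recognition complex, Cdc6 and Cdt1 load the ring of Mcm2 to Mcm7 onto DNA. In S phase the kinases start the helicase with Cdc45 and the GINS complex, the primase and polymerases copy both strands, and Pcna, loaded by the Rfc complex, holds the polymerases on the template. Most of these genes are transcribed at the G1 to S boundary under E2F transcription factors, and the embryonic heart, whose cardiomyocytes still divide, expresses them.

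No replication gene passed the test for a difference between knockout and wild-type ventricles. In limma, 0 of the 38 genes tested had an adjusted p under 0.05, against 0% of all genes, and the smallest adjusted p of a replication gene was 0.642. At an unadjusted p under 0.05 there were 3 genes, against 4.69% of all genes. Of these, 2 were higher in knockout, Pcna and Cdc6, where 2.18% of all genes were, and 1 lower, Fen1, where 2.51% of all genes were. Of the 38, 24 (63.2%) had a log2 difference above 0, against 50.4% of all genes, and the median was 0.07 against 0.0023. Of the 2300 genes at least as bright as the median replication gene, 59.2% were above 0, with a median of 0.028. The 95% interval of a replication gene, not adjusted for the number of genes, reached a median of 0.33 to either side. Larger differences did not pass the adjusted threshold: Fen1, at -0.54, had an adjusted p of 0.642 in limma. Differences of that size could therefore be missed with 3 arrays per genotype. In such bulk samples, a change in the share of cycling cells and a change in RNA per cell cannot be told apart.

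**Figure D1:**
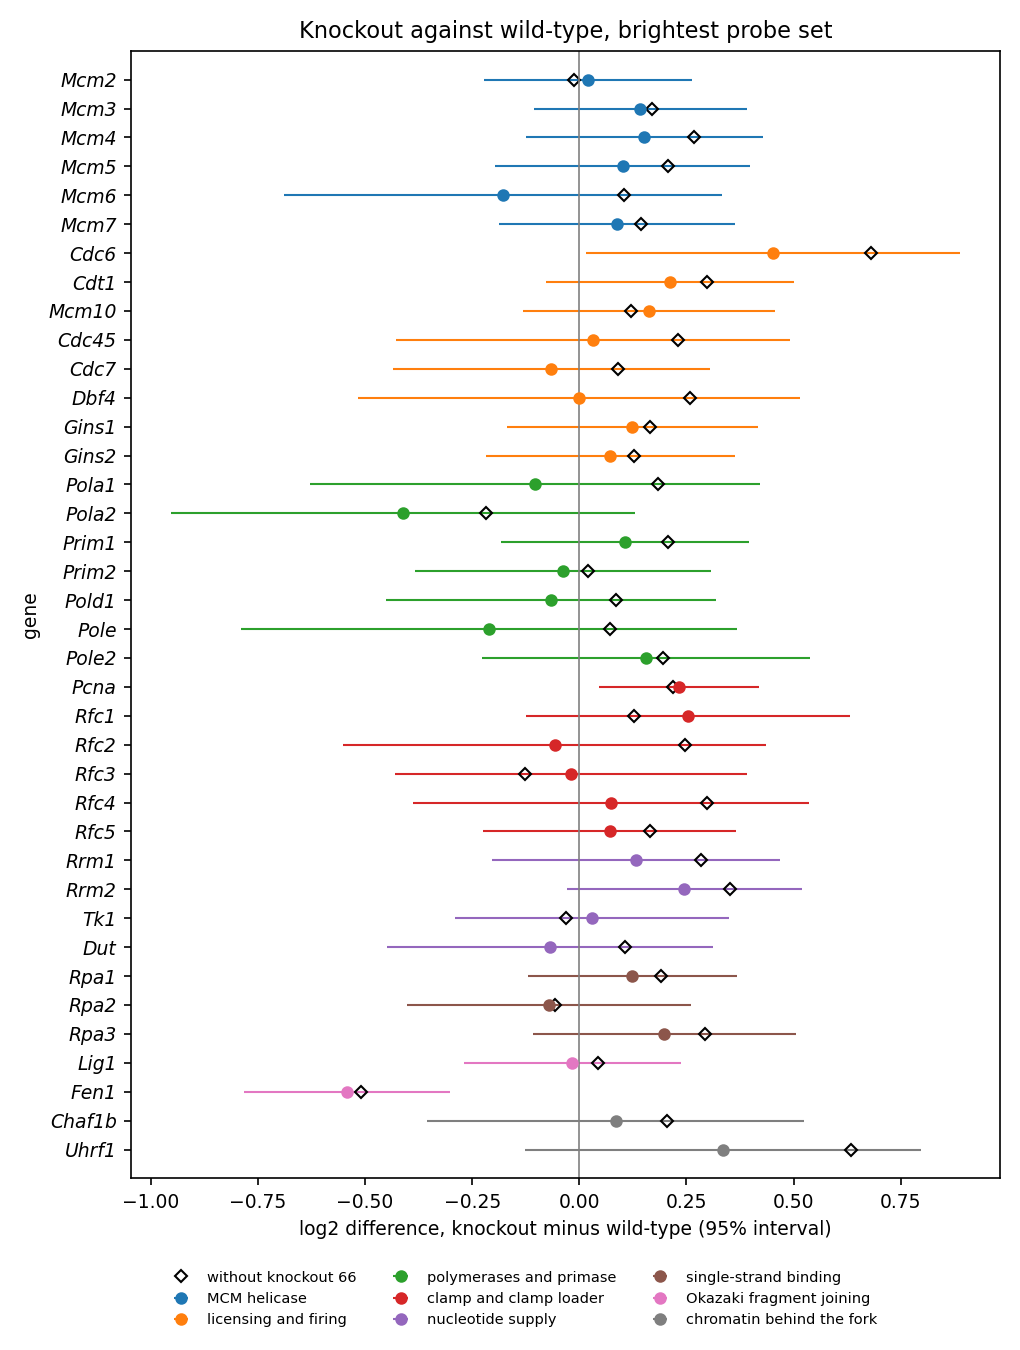
Log2 difference of each replication gene, knockout minus wild-type, on its brightest probe set (x axis), with genes on the y axis coloured by role. Points are estimates from 3 arrays per genotype with 95% intervals, and open diamonds are estimates on the same probe sets without knockout 66; 35 of the 38 intervals hold 0, and most diamonds lie to the right of their points.

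The MCM helicase, the ring that unwinds DNA ahead of the fork, gave 5 of 6 subunits above 0, with a median of 0.09 and a range from -0.18 to 0.15. Mcm7 read 3911, 3201 and 3142 in knockout 1, 26 and 66 against 3683, 3120 and 2850 in wild-type 13, 23 and 57. The genotypes overlapped, with knockout 1 and wild-type 13 the high arrays, and the difference was 0.09 ± 0.13. Mcm4 read 2163, 1982 and 1624 in knockout against 1754, 1799 and 1606 in wild-type. Here knockout 1 and 26 lay above every wild-type array and knockout 66 lay among them (0.15 ± 0.13). Mcm3 read 1575, 1459 and 1431 in knockout against 1475, 1252 and 1320 in wild-type, again overlapping (0.14 ± 0.11). Mcm5 differed by 0.10 ± 0.14. Mcm2 gave 0.02 ± 0.11, and unlike the other subunits it was lowest in knockout 1. Further kept probe sets gave -0.016, -0.044 and -0.16 for Mcm3, -0.036 for Mcm4 and -0.035 for Mcm2. Those of Mcm5 were above 0, and those of Mcm7 lay on both sides.

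Mcm6 had the widest spread of the helicase. On its brightest probe set it read 1650, 1152 and 759 in knockout against 1519, 1220 and 1135 in wild-type, so that knockout 1 was the highest array and knockout 66 the lowest (-0.18 ± 0.23). A second probe set did not show that spread. It read 1203, 1090 and 1161 in knockout against 1102, 1302 and 1275 in wild-type (-0.09 ± 0.12). Both were below 0, but only the brightest, whose name ends in _x_at, set knockout 66 below the rest. On that probe set the difference was 0.10 ± 0.17 without knockout 66 and -0.45 ± 0.19 without knockout 1. The ending marks probe sets with probes that also match other transcripts. Names of the brightest probe sets of Mcm2, Mcm3, Mcm5 and Mcm7 end in _s_at or _x_at. The helicase median was -0.015 when probe sets of either ending were left out. It was 0.0039 with the kept probe sets of a gene averaged and -0.035 with the second brightest.

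Most helicase genes with a promoter in the table, like part of the other replication genes, have a sequence feature that the choice of genes did not use. Promoters of 34 of the 40 genes were matched in the RefSeq table (build GRCm38.p6, 250 bases before to 50 after the start of transcription). They were searched on both strands for 4 spellings of the E2F site: TTTCCCGC, TTTGGCGC, TTTCGCGC and TTTGCCGC. At least 1 match was found for 12 of the 34 genes (35.3%), in 30% of their promoters. Of all 32851 promoters of that length 2.26% held a match, as did 2.6% of the 27025 genes they belong to. By role, 4 of 5 helicase genes had one (Mcm3, Mcm5, Mcm6 and Mcm7), as did 3 of 5 polymerase genes (Pola1, Pold1 and Pole2), Cdc6, Cdt1, Rfc3, Lig1 and Uhrf1. None of the 5 nucleotide supply genes and none of the 3 Rpa genes did. A match is a description of letters in this window, not a site shown to be bound.

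The promoters of 3 helicase genes are printed because their matches, 3 in Mcm6, 2 in Mcm5 and 1 in Mcm7, lie upstream of the start, where those of Mcm3 do not. Mcm7 has another match after the start. Each is the 250 bases before the start of transcription, 5′ to 3′ on the gene's strand, with matches in capitals. They are Mcm6 (chr1:128359706-128359955, minus strand), Mcm7 (chr5:138171884-138172133, minus strand) and Mcm5 (chr8:75109259-75109508, plus strand). The longer run of capitals in Mcm6 and in Mcm5 is a pair of matches on opposite strands that overlap.
Mcm6: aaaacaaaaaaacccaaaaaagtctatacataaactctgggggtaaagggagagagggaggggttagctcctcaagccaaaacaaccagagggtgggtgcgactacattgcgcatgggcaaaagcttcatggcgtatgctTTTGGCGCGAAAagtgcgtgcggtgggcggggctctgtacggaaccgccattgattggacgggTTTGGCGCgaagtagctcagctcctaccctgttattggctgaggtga
Mcm7: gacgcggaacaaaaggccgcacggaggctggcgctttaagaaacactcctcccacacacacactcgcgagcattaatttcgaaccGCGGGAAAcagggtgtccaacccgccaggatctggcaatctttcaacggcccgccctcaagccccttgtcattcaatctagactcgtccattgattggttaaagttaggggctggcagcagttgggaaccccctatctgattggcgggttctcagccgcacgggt
Mcm5: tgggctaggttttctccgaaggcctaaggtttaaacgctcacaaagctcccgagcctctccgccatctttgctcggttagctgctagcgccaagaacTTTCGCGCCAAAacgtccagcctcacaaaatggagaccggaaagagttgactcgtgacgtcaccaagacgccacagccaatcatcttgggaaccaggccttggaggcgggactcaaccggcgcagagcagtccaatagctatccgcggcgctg

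Genes with and without a match overlapped in their differences between genotypes. The 12 with a match had a median log2 difference of 0.09, from -0.18 to 0.45, with 7 above 0. The 20 tested genes without one had a median of 0.07, from -0.54 to 0.25, with 14 above 0. These are descriptions with no test.

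Licensing and firing factors prepare origins and start them. Their median was 0.10, with 6 of 8 above 0. Cdc6, which loads the helicase at origins, read 533, 502 and 316 in knockout 1, 26 and 66 against 327, 309 and 314 in wild-type 13, 23 and 57. Knockout 1 and 26 were far above the wild-type arrays, which lay within 18.4 of each other, while knockout 66 lay among them. The difference was 0.45 ± 0.20, with an unadjusted p of 0.0433 and an adjusted p of 0.974 in limma. Without knockout 66 it was 0.68 ± 0.15, and its adjusted p was 0.341. Without knockout 1 it was 0.32 ± 0.21.

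Cdt1, the partner of Cdc6 in helicase loading, read 2664, 2189 and 2014 in knockout against 2225, 1809 and 1874 in wild-type. The genotypes overlapped through wild-type 13 (0.21 ± 0.13), and a second probe set gave 0.12 ± 0.19. Mcm10, which helps turn the loaded ring into an active helicase, read 600, 639 and 677 in knockout against 612, 518 and 577 in wild-type (0.16 ± 0.13). It was one of 3 replication genes with their highest signal in knockout 66, the others being Rfc1 and Rfc3.

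The remaining factors had differences between -0.07 and 0.12. The firing kinase genes Cdc7 and Dbf4, its activating subunit, gave -0.07 ± 0.17 and -0.00056 ± 0.23. Dbf4 read 1345, 1018 and 676 in knockout against 1139, 1098 and 742 in wild-type, so its 95% interval ran from -0.52 to 0.52. Cdc45, a helicase cofactor, gave 0.03 ± 0.21. On a second Cdc45 probe set it gave -0.66 ± 0.31, with every knockout array below every wild-type array. The GINS subunit genes Gins1 and Gins2 gave 0.12 ± 0.13 and 0.07 ± 0.13.

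Polymerase and primase genes leaned the other way. Of the 7, 5 were below 0, and the median was -0.07. Pola2, the regulatory subunit of polymerase alpha, read 149, 201 and 111 in knockout against 249, 182 and 186 in wild-type. Knockout 26 lay above 2 wild-type arrays, so the genotypes overlapped, and the difference was -0.41 ± 0.25 with an unadjusted p of 0.123. Prim1, the catalytic primase subunit, read 1708, 1453 and 1272 in knockout against 1353, 1478 and 1264 in wild-type (0.11 ± 0.13). A second Prim1 probe set gave -0.29 ± 0.29. Second kept probe sets of Pola1 (0.19), Prim2 (0.12) and Pold1 (0.013) were above 0, where the brightest of each was below. Over the genes of this role with a second kept probe set, the median on it was 0.066.

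Knockout 66 was the lowest of all 6 arrays for 5 of these 7 genes: Pola1, Pola2, Prim2, Pold1 and Pole. Pole, the catalytic subunit of the leading-strand polymerase, read 248, 204 and 118 in knockout against 249, 180 and 215 in wild-type (-0.21 ± 0.26). Pola1 read 543, 466 and 269 in knockout against 362, 485 and 486 in wild-type (-0.10 ± 0.24). Without knockout 66, 6 of the 7 were above 0 and the median was 0.08, so the direction of the polymerase genes also turned on that array. Without knockout 1 the median was -0.11. With arrays weighted by quality, which gave knockout 66 the lowest weight, it was 0.035.

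Pcna, the sliding clamp that tethers polymerases to DNA, was the one replication gene with every knockout array above every wild-type array on the probe set read here. It read 8328, 7696 and 8238 in knockout 1, 26 and 66 against 7160, 6821 and 6652 in wild-type 13, 23 and 57. The difference was 0.23 ± 0.08, with an unadjusted p of 0.0192 and an adjusted p of 0.974 in limma. Groups that did not overlap were found for 2 of the 38 replication genes, Pcna and Fen1, and for 10.9% of all genes. With knockout higher, the share of all genes was 5.40%. The difference of Pcna was 0.22 ± 0.09 without knockout 66 and 0.21 ± 0.10 without knockout 1. Pcna had a single kept probe set, so no other part of its transcript was read.

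The clamp loader genes showed no common direction. Their complex opens the Pcna ring and closes it around DNA. Rfc1, the large subunit, read 618, 570 and 774 in knockout against 528, 658 and 458 in wild-type (0.25 ± 0.17), and its 2 further probe sets gave -0.08 and -0.00053. Rfc2 read 824, 778 and 417 in knockout against 620, 724 and 675 in wild-type, with the high and the low array both knockouts (-0.06 ± 0.22). Rfc3, Rfc4 and Rfc5 gave -0.02 ± 0.19, 0.07 ± 0.21 and 0.07 ± 0.13. On the same probe sets, Rfc3 gave -0.13 without knockout 66 and the other loader genes 0.13 to 0.30. Rfc3 gave 0.03 there when its probe set was chosen anew. With knockout 1 left out instead, Rfc1 gave 0.29 and the others -0.23 to -0.04.

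**Figure D2:**
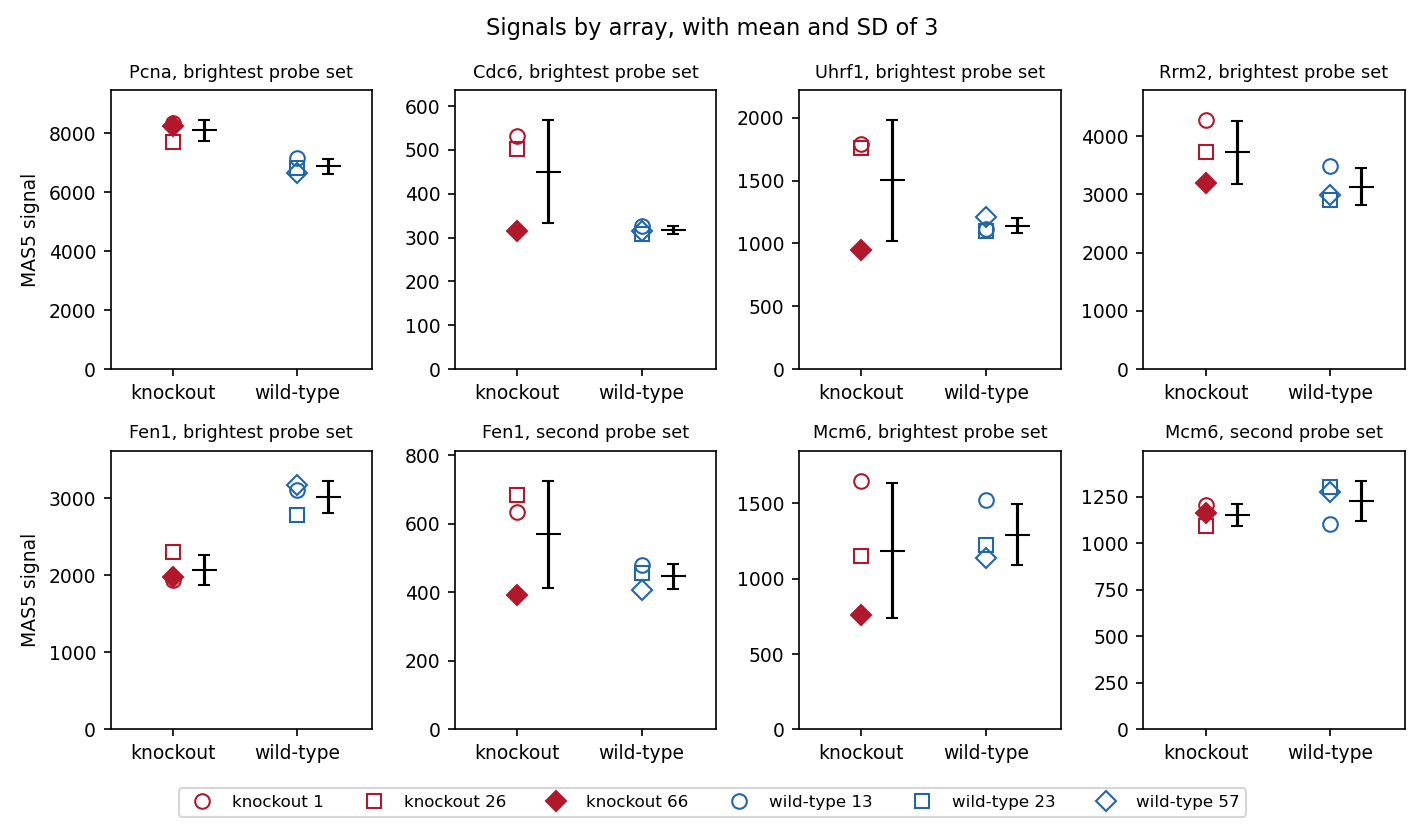
MAS5 signal (y axis) by genotype (x axis) for 8 probe sets of Pcna, Cdc6, Uhrf1, Rrm2, Fen1 and Mcm6, with 1 point per array and the mean ± SD of 3 arrays beside them. Knockout 66 is the filled diamond: it lies with the wild-type arrays for Cdc6, below them for Uhrf1 and with the other knockouts for Pcna, and the 2 Fen1 probe sets differ in direction.

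Nucleotide supply, the enzymes that make deoxynucleotides, gave 3 of 4 tested genes above 0, with a median of 0.08. Rrm2, the regulated subunit of ribonucleotide reductase, read 4271, 3720 and 3190 in knockout against 3493, 2908 and 2989 in wild-type. Knockout 1 and 26 were the high arrays and knockout 66 lay below wild-type 13 (0.25 ± 0.12, unadjusted p = 0.0750 and adjusted p = 0.974 in limma). This probe set, too, ends in _x_at. The 2 further probe sets of Rrm2 were also above 0. One gave 0.18 ± 0.17. The other read 972, 786 and 779 in knockout against 704, 604 and 629 in wild-type, with no overlap (0.38 ± 0.14).

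The large subunit gene, Rrm1, gave 0.13 ± 0.15 on its brightest probe set and -0.27 ± 0.19 on another. Tk1, the salvage enzyme thymidine kinase, gave 0.03 ± 0.15. Dut, the enzyme that removes dUTP, gave -0.07 ± 0.17, while a second probe set read 149, 177 and 161 in knockout against 71.9, 106 and 139 in wild-type (0.59 ± 0.27). Tyms, thymidylate synthase, read 52.7, 72.3 and 58.5 in knockout against 76.5, 63.0 and 39.6 in wild-type on the brightest of 4 probe sets. Probe sets were kept above a signal of 95.2, so Tyms was not tested.

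Single-strand binding by the Rpa trimer protects unwound DNA. Rpa1, its large subunit, read 3448, 3135 and 2862 in knockout against 3196, 2689 and 2783 in wild-type, with overlap (0.12 ± 0.11), and a second probe set gave -0.12 ± 0.12. Rpa3, its small subunit, read 1484, 1219 and 1098 in knockout against 1174, 1143 and 976 in wild-type (0.20 ± 0.14). Knockout 1 and 26 exceeded all wild-type arrays there and knockout 66 did not. Rpa2 gave -0.07 ± 0.15.

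Fen1, the flap endonuclease that trims Okazaki fragments, had the smallest p of all replication genes. Its brightest probe set read 1944, 2299 and 1976 in knockout 1, 26 and 66 against 3113, 2786 and 3169 in wild-type 13, 23 and 57, so every knockout array was below every wild-type array. The log2 difference was -0.54 ± 0.11, with an unadjusted p of 0.000414 and an adjusted p of 0.642 in limma. Of all genes, 5.45% had every knockout array below every wild-type array.

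The other Fen1 probe set did not share that direction. It read 633, 684 and 391 in knockout against 479, 456 and 406 in wild-type (0.30 ± 0.20), with knockout 1 and 26 above and knockout 66 below the wild-type arrays. The brightest probe set of Fen1 ends in _x_at. The direction of Fen1 is therefore not settled by these arrays. Lig1, the ligase that seals the trimmed fragments, gave -0.02 ± 0.12, with a 95% interval from -0.27 to 0.24.

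Chromatin behind the fork is rebuilt by the Chaf1 histone chaperone and marked by Uhrf1, which brings the maintenance DNA methyltransferase to newly copied DNA. Uhrf1 read 1792, 1762 and 948 in knockout against 1116, 1095 and 1211 in wild-type. Knockout 1 and 26 were the high arrays and knockout 66 was the lowest of all 6, so the difference was 0.34 ± 0.21 with every array and 0.63 ± 0.11 without knockout 66. In limma the adjusted p was then 0.184, the smallest of any replication gene without that array. Without knockout 1 the difference was 0.18 ± 0.21. A second Uhrf1 probe set gave -0.08 ± 0.26 with every array. Chaf1b gave 0.08 ± 0.20.

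Cdc6 and Uhrf1 had the largest differences of the replication genes when knockout 66 was left out, and each has an E2F spelling upstream of its start. Both are printed for that reason, with 10 bases on either side and the match in capitals. Fen1 (-0.51) and Rrm2 (0.35), the next largest in size without that array, have no match in the window searched. A link between matches and differences was not tested. In Cdc6 (chr11:98908003-98908030, plus strand) the match begins 138 bases before the start of transcription, and in Uhrf1 (chr17:56304118-56304145, plus strand) 185 bases before.
Cdc6: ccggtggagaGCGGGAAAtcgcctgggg
Uhrf1: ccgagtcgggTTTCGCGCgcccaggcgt

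Knockout 1 gave the highest signal of the 6 arrays for 25 of the 38 genes (65.8%), against 18% of all genes. Knockout 66 gave the lowest for 15 (39.5%), against 24.9% of all genes, and both held at once for 8 (21.1%, against 7.23% of all genes). Knockout 1 exceeded all wild-type arrays for 71.1% of the replication genes and 27.5% of all genes, and knockout 26 did so for 34.2% and 27%. Knockout 66 exceeded them for 13.2% and 33.4%.

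Averaged over the 38 genes, the log2 deviation from the 6-array mean was 0.20 in knockout 1, 0.06 in knockout 26 and -0.19 in knockout 66. It was 0.05, -0.04 and -0.09 in wild-type 13, 23 and 57. All wild-type arrays thus lay within the range of the knockout arrays. The SD between arrays was larger in knockout than in wild-type for 32 of the 38 genes (84.2%), against 63.8% of all genes. The median SD of a replication gene was 0.21 in knockout and 0.13 in wild-type on the log2 scale. Over all genes it was 0.22 and 0.16, so the knockout spread of replication genes was close to that of all genes, and their wild-type spread was the smaller one. These sets were not matched for brightness: the median replication gene read 921, while genes were kept from 95.2. Spread at equal brightness was therefore not compared.

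**Figure D3:**
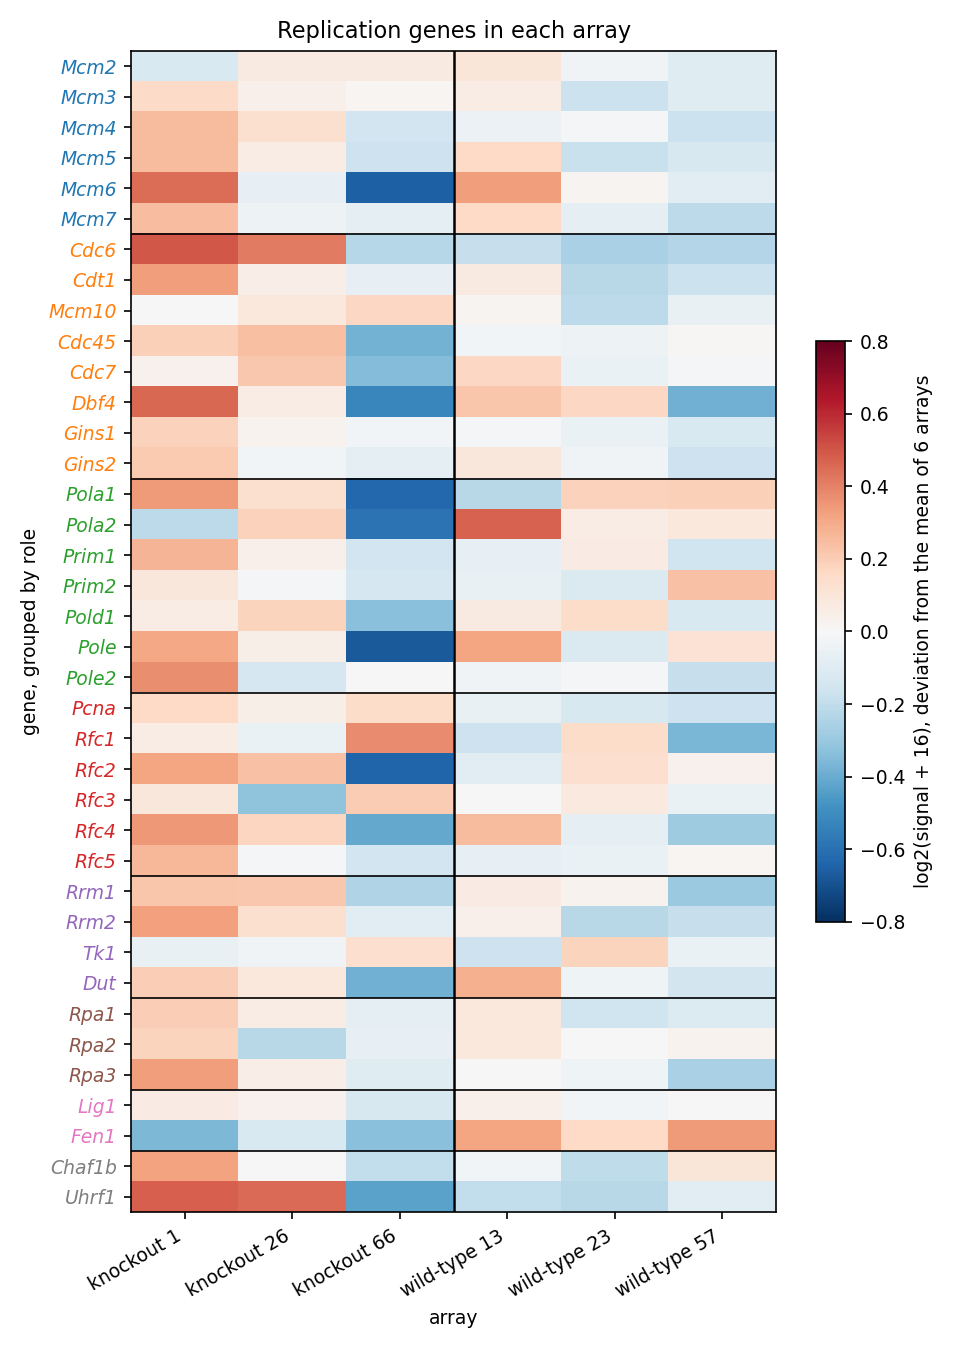
Log2(signal + 16) of the 38 tested replication genes (rows, grouped by role) in each array (columns), as the deviation from the gene's mean over the 6 arrays; red is higher and blue lower. Knockout 1 holds the highest value of 25 genes and knockout 66 the lowest of 15, while the wild-type arrays are paler.

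Leaving out knockout 66 or knockout 1 moved these counts. Without knockout 66, 33 of 38 genes (86.8%) were above 0, against 50.4% of all genes, and the median was 0.17. These held 8 of 8 licensing and firing genes, 6 of 6 clamp and clamp loader genes and 5 of 6 helicase genes. The medians of these roles were 0.20, 0.19 and 0.16. The brightest probe set was chosen anew there, which changed it for Rfc3. On the probe sets chosen with all 6 arrays, 32 of 38 (84.2%) were above 0 without knockout 66, and the median was again 0.17. Without knockout 66, 8 genes (21.1%) were higher at an unadjusted p under 0.05, against 3.75% of all genes. They were Cdc6, Cdt1, Mcm4, Pcna, Rrm1, Rrm2, Rpa3 and Uhrf1. Knockout 1 and 26 both exceeded all wild-type arrays for 10 genes (26.3%), against 12.8% of all genes. Fen1 was lower at that p, against 3.66% of all genes lower, and 0 of the 38 passed the adjusted threshold in limma, against 0.00860% of all genes. Without knockout 1, 16 of 38 (42.1%) were above 0, against 51.5% of all genes, and the median was -0.013. The count was the same on the probe sets chosen with all 6 arrays. It held 4 of 8 licensing and firing genes, 2 of 6 clamp and clamp loader genes and 3 of 6 helicase genes. With probe sets chosen anew, 0 genes were then higher at an unadjusted p under 0.05 in limma, against 3.17% of all genes. Fen1 alone was lower, as were 467 of all 11654 genes. That choice changed the probe sets of Mcm6 and Rfc3. On the probe sets chosen with all 6 arrays, 2 genes were lower at that p, Fen1 and Mcm6. Knockout 26 and 66 both exceeded all wild-type arrays for 2 genes (5.26%), against 12.2% of all genes.

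Markers of red blood cells also differed between these arrays. Of 10 erythroid markers, 8 were on the array under a single symbol and 7 were kept. Their mean log2 deviation was 0.65 in knockout 1, -0.08 in knockout 26 and -0.49 in knockout 66, and 0.03, -0.38 and 0.26 in wild-type 13, 23 and 57. Their summed signal ran from 55585 to 75720 in knockout and from 50986 to 61696 in wild-type, highest in knockout 1 and lowest in wild-type 23. None was at 0, and Hba-a1 was below the level kept. Klf1, the erythroid transcription factor, read 724, 282 and 191 in knockout against 403, 157 and 419 in wild-type. The list had 4 of 7 above 0 between genotypes, with a median of 0.10. Its part in the replication genes' pattern was not tested.

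The 12 cardiomyocyte markers varied less, from -0.08 in knockout 1 to 0.06 in knockout 26, with wild-type arrays at -0.02 to 0.02. Their summed signal ran from 113371 to 126517 in knockout and from 109309 to 118206 in wild-type. The 3′ to 5′ signal ratio of the actin control probe sets, a measure of RNA quality and labelling, was 2.49 to 2.57 in knockout and 2.05 to 2.24 in wild-type. Of the 8 cushion and mesenchyme markers, 6 were below 0, with a median of -0.43. Their summed signal was 4336 to 6331 in knockout and 6294 to 7092 in wild-type, and it was highest of the knockouts in knockout 66. The part of these in the results was not tested either.

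**Figure D4:**
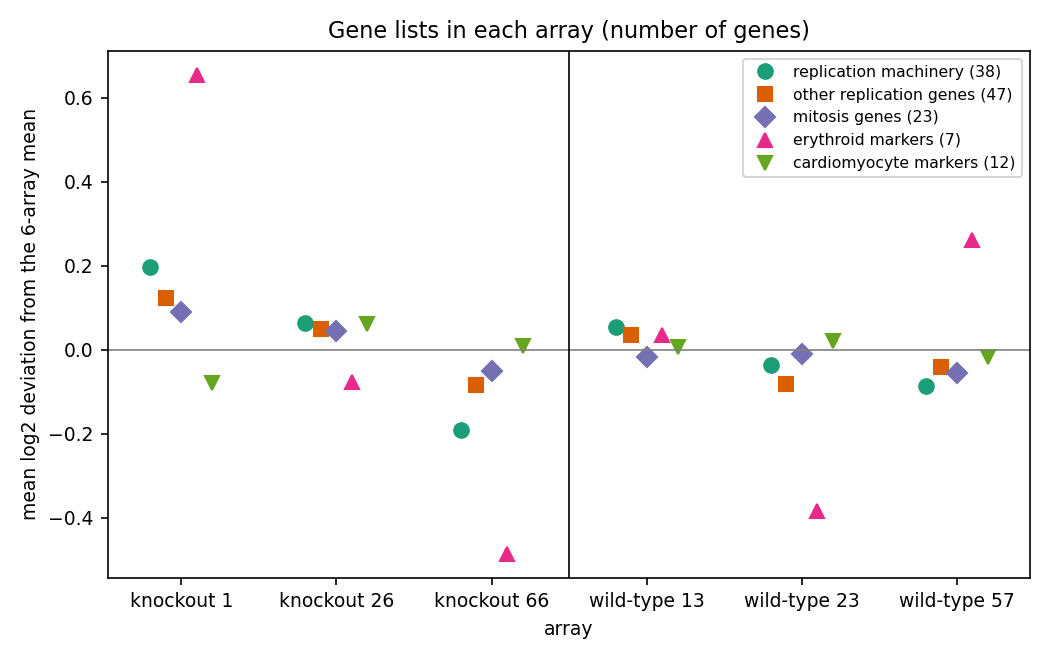
Mean log2 deviation from the 6-array mean (y axis) of the replication machinery and 4 other gene lists in each array (x axis), 1 point per list. Replication, other replication and mitosis genes are all highest in knockout 1; the erythroid markers span from 0.65 in knockout 1 to -0.49 in knockout 66.

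The direction also depended on which probe set was read. For 26 of the 38 genes more than 1 probe set was kept, with 34 beyond the brightest. For 17 of the 26 (65.4%) at least 1 of them had the opposite sign to the brightest, against 57.0% of all genes with several kept probe sets. Of the 34, 14 (41.2%) had the sign of the brightest, where 54.1% did over all genes. The brightest probe sets were above 0 for 24 of 38 genes, but the further ones for 15 of 34 (44.1%), close to the 45% over all genes, with a median of -0.026.

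All kept probe sets of a gene lay on 1 side of 0 for 9 genes. Rrm2, Cdt1, Gins2, Mcm5 and Rfc4 were above 0 throughout, and Cdc7, Mcm6, Rfc3 and Rpa2 were below. Brightness itself went with direction across the array: of the 2300 genes at least as bright as the median replication gene, 59.2% were above 0 and the median difference was 0.028, against -0.0086 in dimmer genes.

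**Figure D5:**
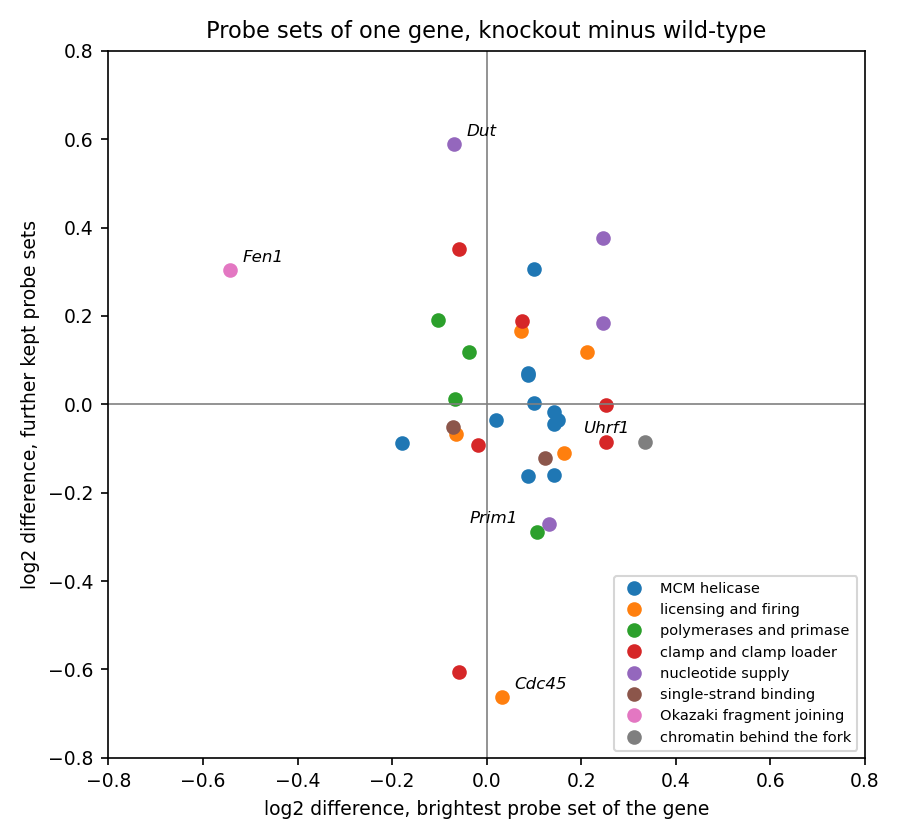
Log2 difference of the brightest probe set of a replication gene (x axis) against that of each further kept probe set of the same gene (y axis), coloured by role, for 34 further probe sets of 26 genes. Points in the upper left and lower right have opposite signs; Fen1, Dut, Uhrf1, Prim1 and Cdc45 are among them.

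Other genes of replication, among them origin recognition, fork protection and nucleotide genes, also lay mostly above 0. Of 50 listed, 47 were tested, 32 (68.1%, against 50.4% of all genes) were above 0 and 15 below, and the median was 0.09. In limma 0 had an adjusted p under 0.05, and at an unadjusted p under 0.05 there were 3 higher (6.38%, against 2.18% of all genes) and 0 lower (against 2.51%). The genotypes did not overlap for 7 with knockout higher (14.9%, against 5.40% of all genes) and 2 with knockout lower (against 5.45%). Asf1a, a histone chaperone, read 1758, 1560 and 1392 in knockout against 1286, 1184 and 1212 in wild-type, with no overlap (0.35 ± 0.12). Samhd1, which breaks down deoxynucleotides, read 413, 487 and 547 in knockout against 361, 295 and 378 in wild-type, also with no overlap (0.47 ± 0.17). Tipin, of the fork protection complex, gave 0.32 ± 0.14 and the ribonuclease subunit gene Rnaseh2b 0.29 ± 0.14. Their mean deviation was 0.12, 0.05 and -0.08 in knockout 1, 26 and 66 against 0.04, -0.08 and -0.04 in wild-type 13, 23 and 57. Without knockout 66, 74.5% of the 47 were above 0, against 50.4% of all genes. Without knockout 1, 59.6% were, against 51.5% of all genes. An E2F spelling was found for 13 of 40 of these genes with a promoter in the table (32.5%), against 2.6% of all genes there.

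Mitosis genes, expressed later in the same cycle, had 16 of 23 above 0 (69.6%, against 50.4% of all genes) with a median of 0.03, and none passed the adjusted threshold in limma. At an unadjusted p under 0.05, 1 was higher, the kinase gene Aurkb, and 1 lower, the kinetochore gene Cenpf (0.57 ± 0.17 and -0.40 ± 0.12). Each is 4.35% of the 23, against 2.18% of all genes higher and 2.51% lower. The chromosomal passenger gene Cdca8 gave 0.21 ± 0.10 and the mitotic kinase gene Cdk1 0.19 ± 0.10. Their mean deviation was 0.09, 0.04 and -0.05 in the knockout arrays and between -0.06 and -0.01 in the wild-type arrays. An E2F spelling was found for 1 of 21 with a promoter in the table (4.76%), against 2.6% of all genes there.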

How the data were processed

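RNA (500 ng per sample) from 3 knockout and 3 wild-type samples was amplified, biotin-labelled and hybridised, per the labels' protocols. The deposited values are linear intensities. The submitters' processing notes name GCOS and MAS5 as the software. The sources used here give no versions or settings. Every array had a 2% trimmed mean of 250.0, so signals are relative to the rest of an array. Precision is limited by the number of arrays.

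Of 45101 probe sets, 64 were controls, and 34958 had 1 gene symbol. Signals were turned into log2(signal + 16). Probe sets with a mean over 6 arrays above the median (a signal of 95.2) were kept, which left 22518. They were fitted in limma 3.58.1 (R 4.3.3) by lmFit and by eBayes with an intensity trend, two-sided. Each gene was read on its brightest kept probe set, and p-values were adjusted over 11661 genes by Benjamini-Hochberg, with calls at 0.05. The fit was tested on simulated data. Symbols of 39 genes were the same in RefSeq by Entrez identifier. Figures used Matplotlib 3.10.9 under Python 3.11.15.

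Values of each array are given for the 12 replication genes of smallest p, the brightest of each role, and some others chosen after their values were seen. Of the other replication genes and of the mitosis genes, the 4 of smallest p are named. Genes and lists were chosen with earlier results of these data known. Alternatives are listed with their effects below. Protein sequences were not used here.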

Additional observations from a re-analysis of the deposited data

How the results depend on the processing

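Under every alternative run, 0 replication genes passed the adjusted threshold, with smallest adjusted p from 0.138 with array quality weights to 1.00. Over all genes the count moved from 0 to 8 with those weights, and over probe sets to 6. Leaving out 1 array gave 0 to 2 genes and 0 to 2 probe sets, with 2 of each without knockout 1 and 1 gene without knockout 66.

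The share of replication genes above 0 ran from 42.1% without knockout 1 to 86.8% without knockout 66 (medians -0.013 and 0.17). It was 63.2% when _x_at and _s_at probe sets were left out. Pseudocounts of 1 and 64, filters at none or the 70th percentile, medians centred or quantiles equalised between arrays, and eBayes run robustly or untrended left it between 63.2% and 66.7%. It was 81.6% with array quality weights. It was 57.9% (median 0.028) when probe sets of a gene were averaged and 42.3% (median -0.035) with the second brightest kept probe set, an alternative chosen after seeing the data.

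With the second probe set the sign turned for Mcm3 (-0.016), Mcm4 (-0.036), Mcm7 (-0.16), Mcm10 (-0.11), Prim1 (-0.29), Rfc1 (-0.084), Rpa1 (-0.12), Fen1 (0.30) and Uhrf1 (-0.085). Without _x_at and _s_at probe sets it turned for Mcm3 (-0.044) and Fen1 (0.30), and with the mean of probe sets for Mcm3 (-0.020) and Prim1 (-0.091). Leaving out 1 array gave Mcm7 a range of -0.013 (without knockout 1) to 0.19 (without wild-type 13) and Prim1 one of -0.0027 (without knockout 1) to 0.21 (without knockout 66). These are the genes whose arrays were listed by p or as brightest of a role. Of all replication genes, signs turned for 17 of 26 with the second probe set, 4 of 38 without _x_at and _s_at probe sets, 8 of 38 with the mean, 9 of 38 with array quality weights, 8 of 38 without knockout 1 and 13 of 38 without knockout 66. Keeping the probe sets chosen on all 6 arrays, an alternative chosen after seeing the data, made the last 12. The cause was not tested. No paired analysis was possible because the genotypes share no replicate number.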
